A study of Rattus norvegicus with 44 samples.

Results

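The 24 h vehicle livers were the untreated baseline of a series on 2 compounds known from the labels only as R1 and R2. They are the arrays that the labels mark as vehicle control at a dose of 0 and a sampling time of 24 h, and they numbered 7 of 44 arrays, 3 from study 1 and 4 from study 4. All were livers of male Wistar rats aged 8 weeks that were gavaged once daily with the vehicle, a citric acid buffer, and killed with CO2 24 h after the final gavage. Tissue from the left lateral lobe was kept in RNAlater, and its RNA was hybridised to 1-colour Affymetrix arrays. The dosed arrays of the same studies were 10 livers given R1 at 10, 30 or 100 mg/kg/day in study 1 and 5 livers given R2 at 300 mg/kg/day in study 4. The vehicle livers of the 336 h studies were 4 in study 2 and 5 in study 3, with the same strain, sex, age and vehicle. Whether each numbered replicate is a separate animal is not given in the labels. The p-values therefore reflect variation among arrays, part of which may be technical. Standard errors and p-values from limma pool the spread within all 11 groups of the 44 arrays, including the dosed and 336 h groups. The number of arrays, 3 against 4, limits the precision.

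A vehicle group is the reference against which a dosed liver is read. Its transcript levels follow feeding, the hour of killing and the handling of the animal and the tissue, because the liver switches between making fat after a meal and releasing glucose from amino acids between meals. Immediate early genes and feedback inhibitors of signalling, such as Dusp1 and Socs2, have short-lived messages that follow hormones and stress within minutes to hours.

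Of 16 tested hepatocyte markers none passed the test in the probe set that represents the gene, beside 4.65% of all genes. However, Serpina1 and Rbp4 each had another probe set called higher and Hnf4a another called lower. The summed signal of the 16 was 89620 to 90790 in study 1 and 91290 to 97150 in study 4. Albumin (Alb), the most abundant plasma protein that hepatocytes make, was 10950 to 11270 in study 1 and 10950 to 12070 in study 4. Correlations of log2 signal over 6361 probe sets were 0.958 to 0.973 for the 9 pairs of arrays within a study and 0.937 to 0.955 for the 12 pairs between studies. Replicate 1 of study 4 had the lowest of both, at 0.9578 to 0.9586 within its study and 0.937 to 0.9419 with study 1. Control probe sets also separated the studies. The mean log2 signal of the 12 bacterial poly-A control probe sets was 6.52 to 7.08 in study 1 and 5.81 to 6.02 in study 4, and the 5S rRNA control probe set read 91.1 to 239 in study 1 and 22.0 to 37.3 in study 4. The 9 hybridisation control probe sets overlapped between the studies, at a mean log2 signal of 7.63 to 8.43 and 7.77 to 8.29. In dosed livers the poly-A mean was 5.85 to 6.87 with R1 and 5.05 to 5.52 with R2, so it also varied within a study. The 5S rRNA signal was 57.9 to 286 with R1 and 16.6 to 33.5 with R2. The log2 ratio of 3′ to 5′ GAPDH signal, a sign of RNA integrity, was 0.41 to 0.81 in study 1 and 0.19 to 0.37 in study 4. A two-sided exact permutation test gave p = 0.0571, the smallest that 7 arrays allow, and 0.171 after adjustment over the 3 ratios of 3′ to 5′ signal. The 3′ to 5′ ratio overlapped between the studies for beta-actin (difference -0.31, p = 0.514) and for hexokinase (0.37, p = 0.571), in the same exact test. Ratios of 3′ to middle signal were tested apart from these. For GAPDH that difference had the opposite sign, at 0.057 (p = 0.286, same exact test). Study is the comparison itself, so its effect cannot be told apart from that of any other difference between the studies, and the part of these control values in the gene results was not tested.

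**Figure D1:**
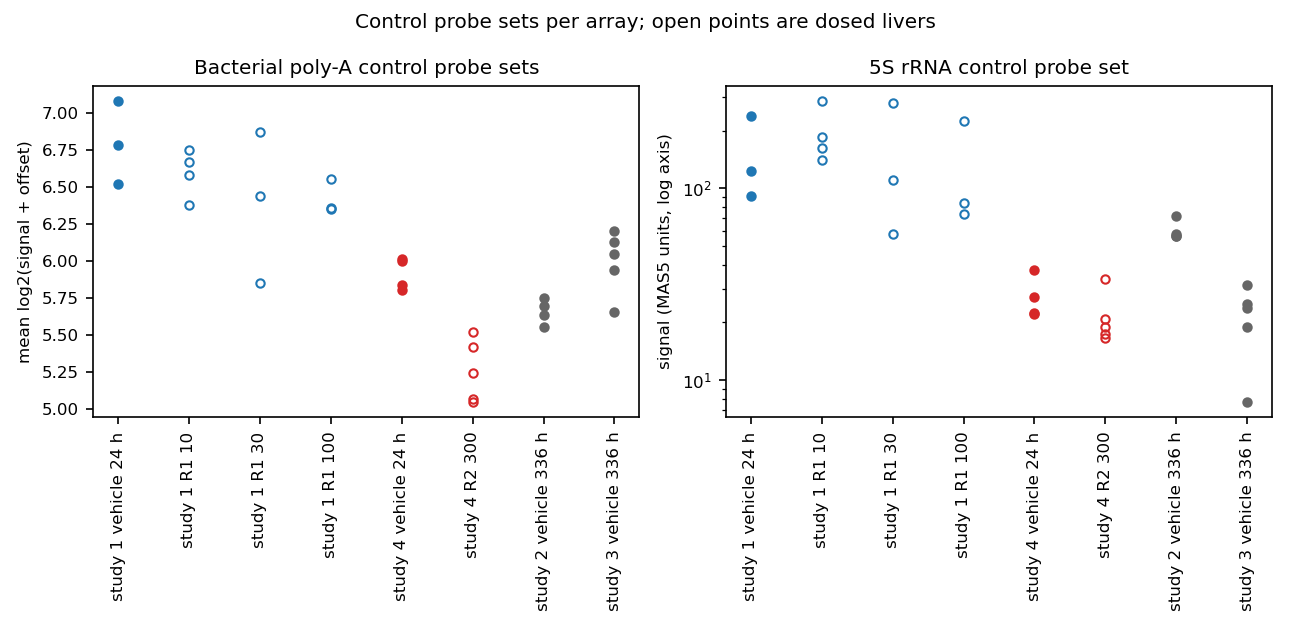
Control probe sets per array, as the mean log2 signal of the bacterial poly-A controls (left) and the 5S rRNA signal on a log axis (right), for the 24 h arrays of studies 1 and 4 and the vehicle arrays of studies 2 and 3. In the vehicle livers the poly-A controls lay at 6.52 to 7.08 in study 1 and 5.81 to 6.02 in study 4, and 5S rRNA at 91.1 to 239 and 22.0 to 37.3.

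The first question was how far the baseline itself differed between the studies. In a limma fit of 6361 probe sets, 359 were called at an adjusted p under 0.05, which was 5.64%. Of these, 167 were higher in study 4 (2.63%) and 192 were lower (3.02%). The split depends on the scaling, since centring on housekeeping genes gave 71 higher and 268 lower. The total was 574 with only the 16 vehicle arrays fitted and 714 with arrays weighted by quality. With 1 probe set for each of 3696 genes, 172 genes were called (4.65%), 85 of them higher (2.3%) and 87 lower (2.35%). The signals of the 3 and the 4 arrays did not overlap in 1343 probe sets (21.1%), among them 339 of the 359 that were called. The median size of the difference was 1.14 on the log2 scale in the called probe sets and 0.32 in all tested, and 217 called probe sets differed by more than 2-fold. Leaving out replicate 1 of study 1 left 221 calls and leaving out its replicate 2 left 193. In bulk liver, fewer cells of a type and less RNA per cell cannot be told apart.

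Named genes rose and fell over a wide range of levels. The largest rises and falls were picked among called genes whose groups do not overlap, so their lack of overlap was fixed by that choice. Cct6a, a subunit of the TRiC chaperonin that folds actin and tubulin, had the largest rise. Its signal was 25.9, 15.4 and 17.1 in replicates 1 to 3 of study 1, and 184, 130, 152 and 71.75 in replicates 1 to 4 of study 4. The groups did not overlap, and the log2 difference was 2.57 ± 0.29 (SE), with an adjusted p of 9.74e-08 in limma. Ifrd1, a transcriptional coregulator, read 12.8, 4.87 and 5.82 in study 1 against 60.2, 42.9, 46.7 and 34.9 in study 4, a difference of 2.24 ± 0.44 with an adjusted p of 0.000696. Its study 1 mean of 7.83 was under 9.17, the level of the filter on dim probe sets. The size of its difference therefore depends on the offset of 2.89 added before log2. Rida, which clears reactive imine intermediates of amino acid metabolism, varied little within each vehicle group. It was 272, 275 and 293 in study 1 and 958, 1095, 1183 and 1025 in study 4, with a difference of 1.91 ± 0.41 and an adjusted p of 0.00226. Its R1 livers in study 1 ran from 57.6 to 309.5, and their spread is part of that pooled error. Anapc16 (1.90 ± 0.28), a subunit of the anaphase-promoting complex, and Irf3 (1.49 ± 0.23), a transcription factor of the interferon response, also rose without overlap. Both kept their calls with each array left out. For Irf3 1 of 2 probe sets was called, and the other did not pass in limma (0.31 ± 0.39, adjusted p = 0.727).

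**Figure D2:**
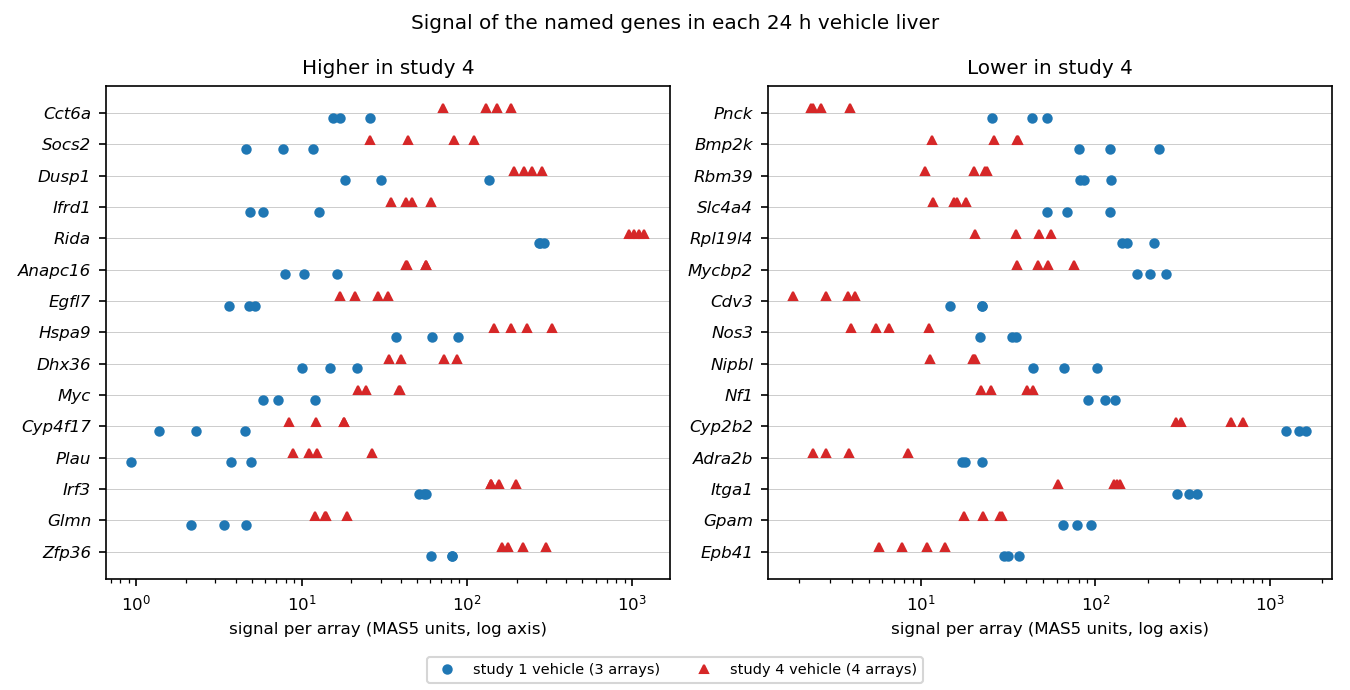
Signal in each 24 h vehicle liver, on a log axis, for the 15 genes with the largest rise and the 15 with the largest fall in study 4 among called genes whose groups do not overlap. Circles are the 3 arrays of study 1 and triangles the 4 arrays of study 4, and the genes run from Cct6a, up by 2.57 on the log2 scale, and Pnck, at -2.87.

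Among immediate early genes, 4 of 16 tested members were called and all 4 were higher in study 4, against 2.3% of all genes. The median difference over the 16 was 0.33, beside 0.02 over all genes. The promoters of the called members in the RefSeq table (GRCr8) are shown because these genes were called in the same direction, which is how they were picked; 10 of the 16 members had an entry, and Myc and Socs2 had none. Each runs 5′ to 3′ on the gene's strand from 250 bases before the start to 50 after. Capitals mark TGACG on either strand, the core of the cAMP response element TGACGTCA, and the CArG box bound by serum response factor.
Dusp1: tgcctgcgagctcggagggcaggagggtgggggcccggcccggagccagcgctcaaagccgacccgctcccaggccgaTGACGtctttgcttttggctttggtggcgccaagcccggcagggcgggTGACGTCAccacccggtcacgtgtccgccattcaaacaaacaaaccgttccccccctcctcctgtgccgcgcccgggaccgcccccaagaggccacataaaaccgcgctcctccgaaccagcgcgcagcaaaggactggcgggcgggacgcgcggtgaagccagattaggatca
Zfp36: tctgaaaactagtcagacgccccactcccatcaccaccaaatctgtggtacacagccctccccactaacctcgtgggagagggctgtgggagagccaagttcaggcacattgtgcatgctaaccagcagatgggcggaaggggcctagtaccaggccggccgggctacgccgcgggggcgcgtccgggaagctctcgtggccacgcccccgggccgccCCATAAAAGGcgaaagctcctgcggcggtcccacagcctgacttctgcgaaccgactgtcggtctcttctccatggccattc
Gadd45a: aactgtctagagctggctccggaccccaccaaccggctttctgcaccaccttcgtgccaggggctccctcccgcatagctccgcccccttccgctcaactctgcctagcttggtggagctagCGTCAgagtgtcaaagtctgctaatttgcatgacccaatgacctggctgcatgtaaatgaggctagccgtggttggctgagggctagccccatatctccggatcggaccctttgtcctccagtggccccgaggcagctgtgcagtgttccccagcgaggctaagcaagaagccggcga
They lie at chr10:17184603-17184902 (plus strand), chr1:92799059-92799358 (minus strand) and chr4:97486750-97487049 (minus strand). The full element TGACGTCA stood in Dusp1, where it overlaps the core on both strands, and in 1.83% of 33469 promoters. The core TGACG was in 2 of the 3 called promoters, in 4 of the 7 of members that were not called, and in 21.2% of all promoters. A CArG box was in 1 of the 3, in 3 of the 7, and in 1.64% of all. These letters describe the windows and say nothing of binding in these livers.

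Dusp1, the phosphatase that switches off MAP kinases, rose the most of the 4. Its signal was 18.4, 136 and 30.0 in study 1 and 220, 284, 193 and 249 in study 4. Replicate 2 of study 1 was high for its group, yet the groups did not overlap, and the difference was 2.36 ± 0.55 with an adjusted p of 0.00516 in limma. It lost its call only without replicate 1 of study 1, at an adjusted p of 0.0922, and 2 of its 3 probe sets were called. Myc, the growth-promoting transcription factor, was 7.17, 12.1 and 5.82 against 24.5, 21.8, 38.6 and 39.3, with no overlap and a difference of 1.59 ± 0.41. Its study 1 mean of 8.36 was under the filter level of 9.17, so the size depends on the offset. Both Myc probe sets were called, and without replicate 1 or replicate 3 of study 1 the representative one was not, with an adjusted p of up to 0.0759. Gadd45a, a stress gene that slows the cell cycle, was 20.9, 35.3 and 24.5 against 61.0, 56.8, 66.7 and 66.3, a difference of 1.16 ± 0.28. It was called in 3 of 4 probe sets, and lost the call without replicate 1 of study 1 at an adjusted p of 0.0644. Zfp36, which destabilises cytokine messages, was 60.3, 81.6 and 81.7 against 162, 218, 178 and 300.0, a difference of 1.46 ± 0.43. Its call, at an adjusted p of 0.0319, was lost without any 1 of replicates 1, 2 and 3 of study 1 and replicates 2 and 4 of study 4, at up to 0.140. The other 12 members did not pass, although Klf4, a zinc finger transcription factor, had another probe set called higher. Fos, the first of the family to respond to most stimuli, read 31.7, 41.5 and 38.8 in study 1 against 14.4, 19.3, 29.3 and 25.4 in study 4, with a difference of -0.72 ± 0.35 and an adjusted p of 0.249.

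Socs2, an inhibitor of growth hormone signalling that growth hormone itself induces, was the 1 called gene of 13 in the growth hormone and IGF list, beside 4.65% of all genes. Its signal was 4.62, 11.6 and 7.72 in study 1, and 110, 26.0, 83.2 and 43.9 in study 4. The study 1 mean of 7.995 was under the filter level of 9.17, so the size depends on the offset. Every array of study 4 was above every array of study 1, with a difference of 2.52 ± 0.53 and an adjusted p of 0.00191 in limma, and the call held with each array left out. Igf1, the main growth hormone target secreted by the liver, was 3357 to 4114 in study 1 and 2411 to 2884 in study 4, which did not pass (-0.50 ± 0.21, adjusted p = 0.169).

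Genes that break down amino acids were called in 4 of 29 tested, 3 higher and 1 lower, beside 4.65% of all genes, with a median difference of 0.19. Arg1, which makes urea from arginine, was 1271, 1143 and 889 in study 1 and 2277, 1976, 2087 and 1775 in study 4. The groups were well apart, the difference was 0.89 ± 0.18 with an adjusted p of 0.000941 in limma, and the call held with each array left out. Oat, which links ornithine to glutamate, was 288, 347 and 343 against 786, 1085, 567 and 1088, a difference of 1.38 ± 0.35 that lost its call only without replicate 1 of study 1 (adjusted p = 0.0653). Tdo2, the first enzyme of tryptophan breakdown, rose by 0.79 ± 0.23, and its call ended without any 1 of the 3 arrays of study 1 or without replicate 3 of study 4, at up to 0.129. Sardh, a mitochondrial sarcosine dehydrogenase, went the other way, from 58.7, 113 and 113 to 28.5, 30.1, 36.4 and 36.3, a difference of -1.40 ± 0.30. Tat, which breaks down tyrosine under glucocorticoid control, read 457 to 500 in study 1 and 574 to 1169 in study 4 without passing (0.80 ± 0.32, adjusted p = 0.140). Otc, of the urea cycle, and Cdo1, of cysteine breakdown, each had another probe set called higher. None of 14 fasting-induced genes was called, among them Pck1, the key enzyme of glucose synthesis (0.51 ± 0.46, adjusted p = 0.591).

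Of 11 insulin- and feeding-induced genes, 2 were called and both were lower in study 4, against 2.35% of all genes, and the median was -0.41. Gpam, which starts glycerolipid synthesis at the mitochondrion, was 64.8, 94.2 and 78.8 in study 1 and 17.6, 28.2, 29.1 and 22.8 in study 4. The groups did not overlap, and the difference was -1.60 ± 0.38 with an adjusted p of 0.00652 in limma. All 5 of its probe sets were called lower, from -1.27 to -1.94. Fasn, the fatty acid synthase, was 334, 265 and 111 against 79.2, 82.6, 59.3 and 122. Replicate 3 of study 1 lay below replicate 4 of study 4, so the groups overlapped, and the difference of -1.34 ± 0.35 lost its call without replicate 1 or 2 of study 1 or replicate 3 of study 4, at an adjusted p of up to 0.146. Srebf1, which drives the lipogenic programme, did not pass (-0.28 ± 0.37, adjusted p = 0.737), nor did any of 15 cholesterol genes.

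Cyp2b2, a cytochrome P450 that the receptor CAR induces, was the 1 called gene of 15 CAR and PXR targets, beside 4.65% of all genes. It was 1469, 1623 and 1244 in study 1 and 288, 699, 604 and 308 in study 4. Every study 4 array was lower, the difference was -1.70 ± 0.32 with an adjusted p of 0.000525 in limma, and the call held with each array left out. The family has near-identical copies, so its probe sets can read more than 1 of them, and 1 of 2 probe sets was called.

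Acute phase genes were called in 4 of 22 tested, beside 4.65% of all genes. By the representative probe set 2 were higher and 2 lower, but the higher ones include Crp, whose probe sets disagree. Cp was not called in that probe set and had another called lower. Cebpb, a transcription factor of the acute phase and of glucose synthesis, rose in both of its probe sets, from 149, 197 and 217 to 553, 369, 485 and 280, a difference of 1.13 ± 0.22 with an adjusted p of 0.000724 in limma. Crp, the C-reactive protein, gave opposite answers by probe set. The probe set with the highest signal was 915, 1538 and 1527 in study 1 and 2077, 2221, 2493 and 2584 in study 4, a difference of 0.85 ± 0.23 with an adjusted p of 0.0175. It lost its call without replicate 1 of study 1 or replicate 4 of study 4, at up to 0.190. Another probe set of Crp was 383, 273 and 391 against 88.3, 135, 106 and 133, a difference of -1.57 ± 0.23, and the remaining one was also called lower (-1.39 ± 0.23), so no direction can be given for Crp. C3, the central complement component, read 6461, 6277 and 5821 against 3501, 4506, 4222 and 4802 (-0.55 ± 0.16), and its call ended without any array of study 1 or without replicate 1 or 3 of study 4, at up to 0.116. Itih4, a plasma protease inhibitor family member, fell by 0.61 ± 0.16 on the log2 scale, and lost its call without replicate 2 or 3 of study 1 or replicate 3 of study 4, at up to 0.0908. A2m, the rat's major acute phase protein, read 186 to 499 in study 1 and 57.3 to 126 in study 4 without passing (-1.66 ± 0.56, adjusted p = 0.0712), although the groups did not overlap and 1 of its 5 probe sets was called lower.

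Hspa9, the mitochondrial Hsp70 that pulls proteins into the matrix, was 61.1, 37.1 and 88.0 in study 1 and 328, 231, 186 and 146 in study 4, a difference of 1.81 ± 0.32 with an adjusted p of 0.000237 in limma, in 1 of 2 probe sets. Of 28 respiratory chain genes 2 were called, both higher, beside 2.3% of all genes: Uqcrc2, a core subunit of complex III (1.24 ± 0.31, lost without replicate 3 of study 1 at an adjusted p of 0.0780), and Ndufa4 (0.91 ± 0.23, lost without replicate 2 of study 1 or replicate 3 of study 4 at up to 0.109). The median over the 28 was 0.09. Of 16 listed heat shock and ER chaperones, which do not include Hspa9, only Dnaja1 was called (0.89 ± 0.21), beside 4.65% of all genes. Dnaja1, an Hsp40 cochaperone, was called in 1 of 2 probe sets and not as their mean (adjusted p = 0.44). The median over the 16 was -0.04. None of 36 ribosomal protein genes or 19 proteasome genes was called in its representative probe set. Another probe set was called in 5 ribosomal protein genes, higher in 3 and lower in 2, and in 3 proteasome genes (Psma2, Psma5 and Psmd1), higher in each.

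The falls were led by genes of varied function. Pnck, a calmodulin-dependent kinase, was 43.2, 52.5 and 25.6 in study 1 and 2.41, 3.93, 2.35 and 2.65 in study 4, a difference of -2.87 ± 0.62 with an adjusted p of 0.00239 in limma. All 4 values in study 4 were near the offset of 2.89 that was added before log2, so the size depends on that offset. Bmp2k, a kinase of the endocytic machinery, was 80.2, 232 and 120 against 11.6, 35.9, 35.3 and 26.1, a difference of -2.25 ± 0.32 with an adjusted p of 7.32e-06. Mycbp2, a very large E3 ubiquitin ligase, was 174, 253 and 206 against 74.9, 53.4, 46.7 and 35.3, a difference of -1.98 ± 0.26 with an adjusted p of 1.67e-06. Rbm39, a splicing factor, was 85.6, 82.0 and 124 against 10.5, 23.2, 20.1 and 23.8 (-2.19 ± 0.38), in 1 of 2 probe sets. Nf1, the neurofibromin that turns off Ras, fell by 1.71 ± 0.25 on the log2 scale and Nipbl, which loads cohesin onto DNA, by 1.78 ± 0.32. Slc4a4, the sodium bicarbonate cotransporter, was 122, 68.7 and 52.5 against 15.4, 11.6, 18.2 and 16.03 (-2.13 ± 0.39). Groups without overlap were a condition for picking these genes, so that trait is no support here. Each kept its call with any 1 array left out. For Nf1 1 of 4 probe sets was called, and the mean over the 4 was not (adjusted p = 0.0992).

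Fn1, fibronectin, which hepatocytes secrete and stellate cells deposit, was 2442, 2749 and 2493 in study 1 and 1229, 1292, 1417 and 1580 in study 4. The difference was -0.90 ± 0.20 with an adjusted p of 0.00357 in limma, and 4 of its 5 probe sets were called lower, down to -2.46 ± 0.43. Itga1, a collagen-binding integrin subunit, was 345, 385 and 293 against 60.6, 133, 138 and 128, a difference of -1.60 ± 0.31 with an adjusted p of 0.000528. Of 19 stellate cell and matrix markers 2 were called lower, beside 2.35% of all genes, Fn1 and Reln, a secreted matrix protein (-1.14 ± 0.27, lost without replicate 1 of study 1 at 0.0606), and the median was 0.04. The collagens did not pass: Col1a1 was 190.0 ± 23.1 (SD, n = 3) against 128 ± 78.4 (SD, n = 4) in study 4, and Col3a1 381 ± 46.1 and 498 ± 159. The summed signal of the 19 was 5849 to 6765 in study 1 and 3573 to 4994 in study 4, a sum that includes Fn1. The mean log2 signal of the 19, which weights each gene equally, overlapped, at 5.92 to 6.29 and 5.96 to 6.40.

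Calls among markers of other cells are given beside a share of 4.65% of all genes. Of 8 Kupffer cell and macrophage markers, Lyz2, lysozyme, was higher (1.03 ± 0.32) and Cd14, the lipopolysaccharide coreceptor, was lower (-0.94 ± 0.26). The Lyz2 call was lost without any 1 of the 7 arrays, at an adjusted p of up to 0.146, and that of Cd14 without replicates 2 or 3 of study 1 or replicates 1 or 4 of study 4, at up to 0.120. Clec4f, a defining Kupffer cell marker, was 229 ± 117 (SD, n = 3) and 239 ± 24.1 (SD, n = 4). Aif1, a macrophage protein, had another probe set called higher. The summed signal of the 8 was 1267 to 2411 in study 1 and 1396 to 1729 in study 4. Of 9 endothelial markers Nos3, the endothelial nitric oxide synthase, fell in 1 of 4 probe sets (-1.80 ± 0.39) but not as their mean (adjusted p = 0.174), and 3 of the 9 differences were above 0, with a median of -0.26. Their mean log2 signal was 4.47 to 4.52 in study 1 and 4.02 to 4.44 in study 4, without overlap, and was not tested. That mean includes the Nos3 probe set that fell, and it was not computed without Nos3, so the gap cannot be given to the other markers. No lymphocyte (10 tested), neutrophil or mast cell (7), bile duct (12), red blood cell (5), pancreas (6) or fat and muscle (11) marker was called. With 4.65% of all genes called, lists this short can hold no call, so nothing is concluded about those cells.

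Of the 38 gene lists 20 had no called gene, counting the representative probe set of each gene. They included the 6 clock genes, although Nr1d1, a clock repressor, came close: it was 21.5, 26.6 and 133 in study 1 and 13.4, 19.7, 15.2 and 13.9 in study 4 (-1.33 ± 0.43, adjusted p = 0.0555). Its other probe set was called lower (-1.94 ± 0.61, adjusted p = 0.0498), and in both probe sets replicate 3 of study 1 was several times the other arrays. The 6 genes driven by the clock had the highest median of any list, 0.63, with no call; among them Dbp read 2.75 to 10.3 in study 1 and 12.9 to 15.5 in study 4 (1.01 ± 0.49, adjusted p = 0.247), without overlap. Cyp7a1, the rate-limiting enzyme of bile acid synthesis, spread within study 1 over 60.2, 4.18 and 218 and did not pass (1.51 ± 0.72, adjusted p = 0.235). The lists for bile acid, interferon, NRF2, cell cycle, sex-patterned and apolipoprotein genes held no such call either, and the interferon list did not include Irf3. In these lists Apob, the structural protein of VLDL, had 2 of 5 probe sets called lower, and Psmb9, an immunoproteasome subunit, and Obp3 each had 1 other probe set called higher.

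**Figure D3:**
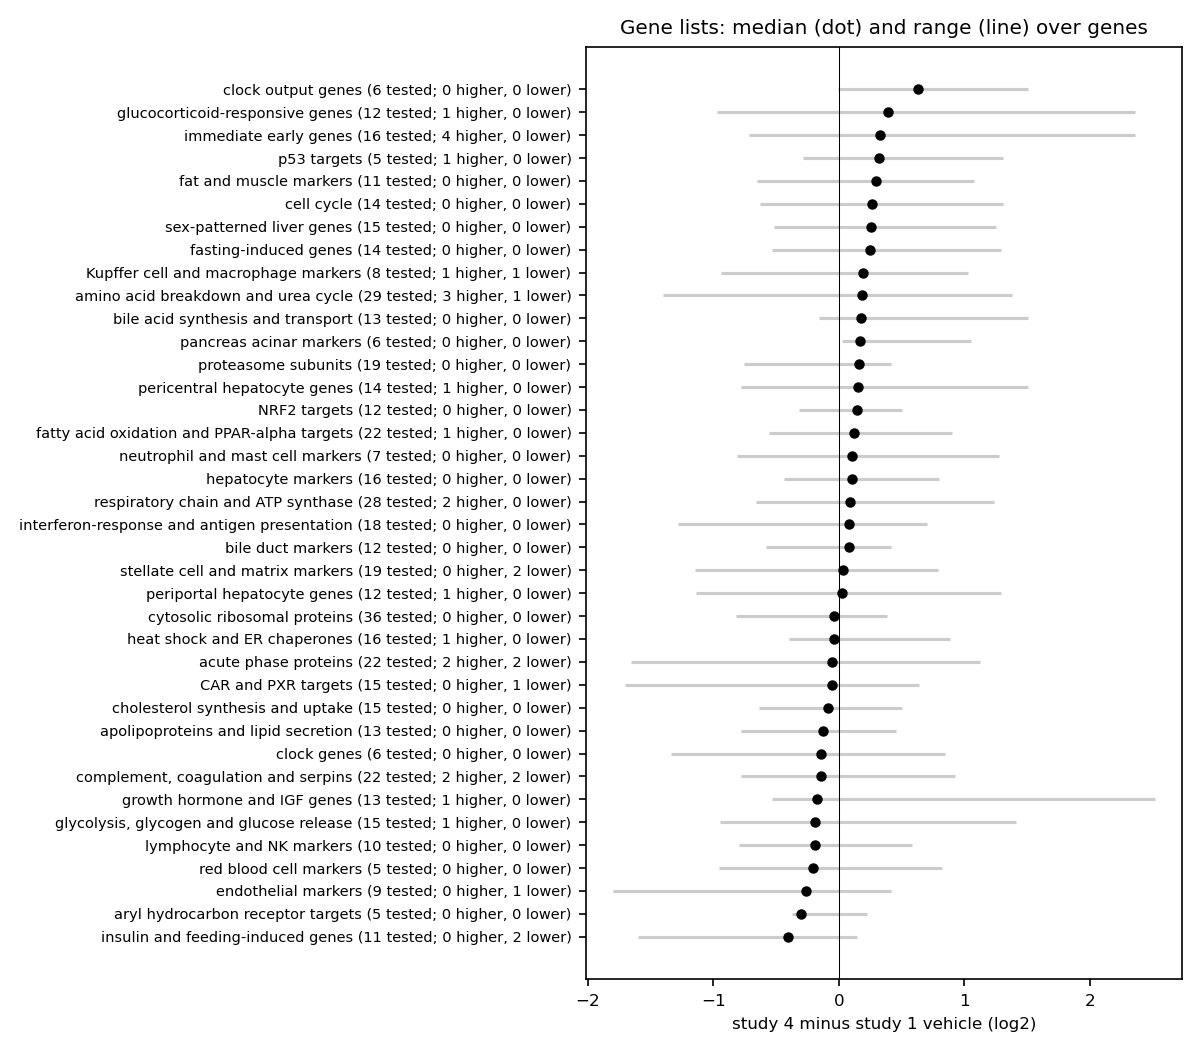
Log2 difference between the 24 h vehicle livers, study 4 minus study 1, as the median (dot) and the range (line) over the tested genes of each of 38 lists, with the genes tested and called in brackets. Medians lay between -0.41 for insulin- and feeding-induced genes and 0.63 for clock output genes, and single genes reached from Nos3 at -1.80 among endothelial markers to Socs2 at 2.52 in the growth hormone list.

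The dosed arrays of the same 2 studies share no array with the vehicles and give each difference a second time, with the compound and dose differing as well. Both comparisons use 1 error estimate per probe set from the fit of 44 arrays, so calls in both are not independent. R2 at 300 against the mean of the R1 doses called 1804 of 6361 probe sets (28.4%). Of the 359 vehicle calls, 248 were also called there in the same direction, 109 higher and 139 lower, which was 69.1% of the vehicle calls and 13.8% of the dosed calls, and 1 was called in the opposite direction. The sign was shared by 332 (92.5%), and over all 6361 probe sets the correlation was 0.52, across features that share the array type and the 2 studies. How many of all 6361 shared the sign was not counted. Replicates 1 and 2 of R2 correlated with the other 3 R2 arrays at 0.924 to 0.944, against 0.956 to 0.972 among those 3. Without these replicates the dosed comparison called 1034, of which 209 were shared in the same direction.

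Cct6a, Bmp2k and Gpam differed in the same direction in vehicle and dosed livers. Cct6a was 12.4 to 35.7 in the 10 R1 livers and 162 to 229 in the 5 R2 livers, a dosed difference of 2.65 beside 2.57 in vehicles. Bmp2k was 54.8 to 241 against 7.23 to 21.3 (-2.85 beside -2.25), and Gpam 59.7 to 152 against 23.6 to 36.3 (-1.57 beside -1.60). The R1 and R2 ranges did not overlap in any of the 3 genes, while R1 livers overlapped the vehicles of study 1 and R2 livers those of study 4. Rida (1.66 beside 1.91), Ifrd1 (2.30 beside 2.24), Mycbp2 (-2.11 beside -1.98) and Fn1 (-1.15 beside -0.90) went the same way and were called in both.

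Socs2, Dusp1 and Cyp2b2 were called in vehicles and not in dosed livers. Socs2 was 7.51 to 66.9 in R1 livers and 13.3 to 26.3 in R2 livers, with a dosed difference of -0.24 (adjusted p = 0.679). Dusp1 was 18.8 to 189 and 23.8 to 44.8, a difference of -0.27 (adjusted p = 0.647). The R2 livers of study 4 all lay below its vehicles in Dusp1, whose lowest was 193. Cyp2b2 was 2109 to 6408 in R1 livers and 1898 to 2315 in R2 livers, every one above the vehicle arrays of both studies, with a dosed difference of -0.48 (adjusted p = 0.124). The vehicle difference minus the dosed difference, tested as 1 contrast in limma and added after the data were seen, called 42 of 6361 probe sets (0.66%), among them 12 of the 359 vehicle calls. It was 2.76 ± 0.65 for Socs2 (adjusted p = 0.0327) and 2.64 ± 0.67 for Dusp1 (adjusted p = 0.0494), and did not pass for Cyp2b2 (-1.22 ± 0.40, adjusted p = 0.153). The 359 vehicle calls, Socs2 and Dusp1 among them, were picked by the vehicle difference that is part of this contrast, which favours a call. Both calls were thin: with 1 vehicle array left out the contrast called 7 to 25 probe sets, Dusp1 was called only without replicate 2 of study 1 (0.0129) and Socs2 only without replicate 2 of study 4 (0.0220), with adjusted p of up to 0.241 and 0.137 otherwise. Without replicates 1 and 2 of R2 neither was called (0.0726 for Socs2 and 0.182 for Dusp1). Without the mean-variance trend neither was called (adjusted p of 0.0503 for Socs2 and 0.0740 for Dusp1). Dusp1 also lost its call with the offset at percentile 5 (0.0572) and without the filter on dim probe sets (0.0705), where Socs2 kept its call. Both kept their calls with arrays weighted by quality and with the replicate block.

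**Figure D4:**
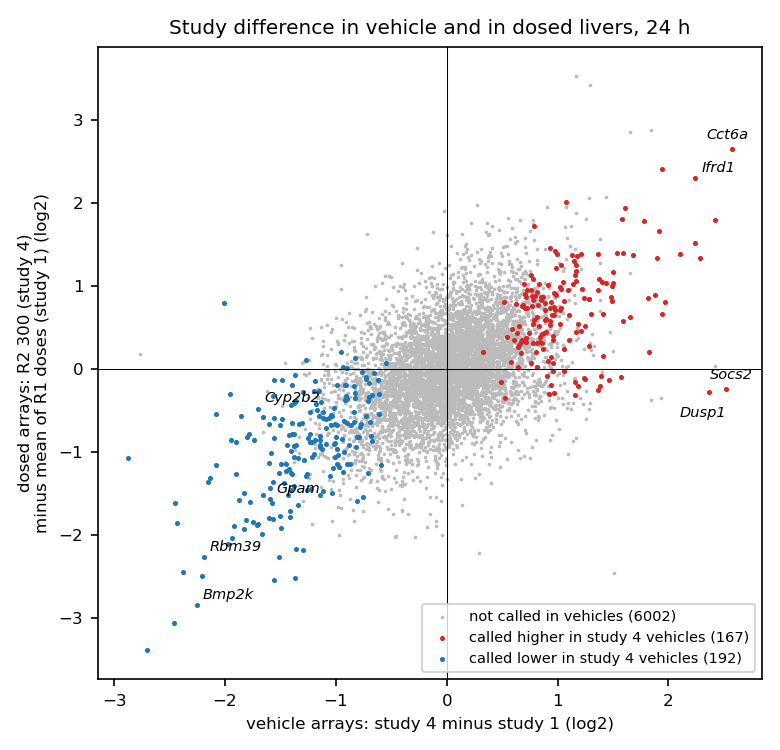
Log2 difference between studies in vehicle livers (horizontal axis, study 4 minus study 1) and in dosed livers (vertical axis, R2 at 300 minus the mean of the R1 doses) for 6361 probe sets. Of 359 probe sets called in vehicles, 332 had the same sign on both axes, while Socs2 and Dusp1 lay near 0 in dosed livers.

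The vehicle livers of the 336 h studies gave a second pair of baselines, and study 3 against study 2 called 1135 of 6361 probe sets (17.8%). Of the 359 probe sets called at 24 h, 137 were called there too, 91 in the same direction and 46 in the opposite one, which was 38.2% of the 24 h calls and 12.1% of those at 336 h. For 177 of the 359, both 336 h vehicle means lay nearer to study 4 than to study 1, for 24 both lay nearer to study 1, and only study 3 was nearer to study 4 for 115 and only study 2 for 43. The 359 were picked for their difference between studies 1 and 4, and these counts were not made over all 6361 probe sets. Cct6a was 139 to 172 in study 2 and 98.0 to 136 in study 3, so the 3 vehicle livers of study 1 were the lowest of all 16. Dusp1 was 114 to 185 in study 2 and 191 to 588 in study 3, and Cyp2b2 323 to 690 and 190 to 374, where the study 1 arrays were again apart from the rest in Cyp2b2 and overlapped study 2 in Dusp1. Bmp2k went with the pairs instead, at 66.1 to 85.5 in study 2 and 14.8 to 22.5 in study 3 (-1.88, adjusted p = 2.22e-06), as did Rbm39 at 73.3 to 101 and 15.03 to 27.4. Gpam was lowest in study 2, at 3.30 to 5.34, against 12.1 to 48.3 in study 3, so its order over the 4 baselines had study 1 at the top, studies 3 and 4 overlapping, and study 2 below all others. Socs2 ranged over 13.3 to 98.3 and 9.99 to 67.2, and the arrays of studies 2, 3 and 4 overlapped.

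**Figure D5:**
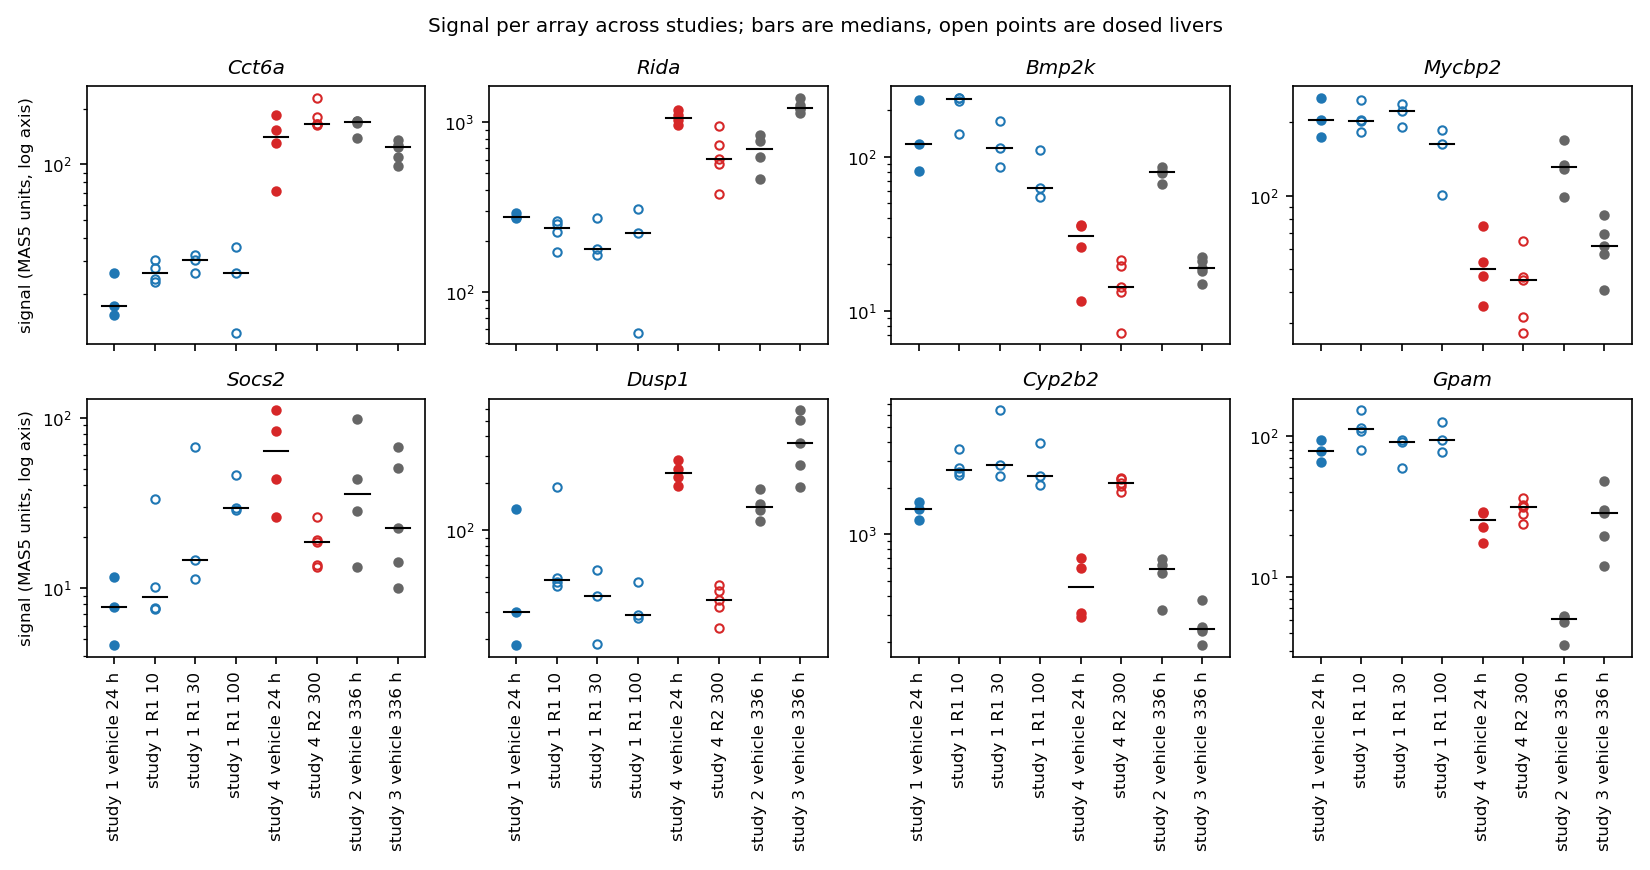
Signal per array on a log axis for 8 genes in the vehicle livers of the 4 studies (filled points) and the dosed livers of studies 1 and 4 (open points), with the median of each group as a bar. Cct6a and Bmp2k separated study 1 from study 4 in vehicle and dosed livers, while in Dusp1 the 4 vehicle arrays of study 4 were the highest of the 24 h arrays.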

How the data were processed

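RNA of rat liver was measured on 44 Affymetrix arrays in 11 groups. The deposited signal values, used here as intensity per probe set, were made with MAS5, per the submitters' processing notes; its version is not given in the sources used here. Per the file values, every array held the same sorted values (median 14.5), so the deposited intensities were quantile normalised, which no source used here states, and depth is not defined. Of 8799 probe sets 59 were controls, 7006 had 1 gene symbol, 308 several and 1426 none. The offset 2.89 (percentile 20) was added before log2. Probe sets whose highest group mean reached 9.17 (percentile 40) were tested, 6361 in all, for 3696 genes represented by the probe set of highest mean. limma 3.58.1 in R 4.3.3 fitted 1 mean per group over 44 arrays (33 residual degrees of freedom, mean-variance trend), with Benjamini-Hochberg adjustment within each comparison over all probe sets tested; errors are standard errors, and differences on the log2(signal + offset) scale understate changes of dim genes. The pipeline was tested on simulated data. Named genes were the 15 largest rises and 15 largest falls among called, non-overlapping genes, up to 4 called genes per list, and key genes, of which some are left out of the text. The groups, gene lists and key genes were chosen with earlier results of these data known. List counts and medians carry no set test. Alternatives varied the offset, filter, arrays fitted, trend, array weights, centring, probe set choice, replicate block and each array left out. Same-numbered arrays of the studies had residual correlations of -0.037, -0.082 and -0.001, so replicate numbers were not taken as pairs.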

Additional observations from a re-analysis of the deposited data

Results flagged for a closer look

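Among 75 named genes, the 4 arrays of study 4 held 1 array far from the other 3 in 4 genes, by Dixon's 95% critical value, which chance passes in about 1 in 20 groups. Egr1, an immediate early transcription factor, was 599.5 in replicate 2 against 164 to 203 in the others, and Tdo2 was 2539 in replicate 3 against 1671 to 1770. Itga1 was 60.6 in replicate 1 against 128 to 138, and Nipbl was 11.2 in replicate 1 against 19.8 to 20.3. The causes were not tested. Itga1 and Nipbl kept their calls without replicate 1, and Tdo2 lost its call without replicate 3 of study 4.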

How the results depend on the processing

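Of 1043 values of named genes under settings other than leaving out an array, 998 kept their direction and their side of the threshold. The 359 calls became 574 (284 higher, 290 lower) with only the 16 vehicle arrays fitted and 714 (355 and 359) with arrays weighted by quality. Centring on housekeeping genes shifted the median of all probe sets by -0.14, and left 71 higher and 268 lower. With 1 array left out the calls were 193 to 291, with 79 to 136 higher and 114 to 173 lower. Of 52 called named genes, 25 kept the call with every array left out in turn, and 15 lost it under some other setting; among these the highest adjusted p was 0.302 for Proc with housekeeping centring, 0.44 for Dnaja1, 0.174 for Nos3, 0.0992 for Nf1 and 0.0981 for Cd14, the last 4 as the mean over probe sets, 0.0851 for Lyz2, 0.0832 for Tdo2, 0.0677 for Crp and 0.0531 for Ndufa4 with housekeeping centring, and 0.056 for C3 without the mean-variance trend. With the replicate number as a block 353 were called (166 higher, 187 lower); the numbers do not pair the samples. The dosed comparison called 1034 (529 higher, 505 lower) without replicates 1 and 2 of R2, and the 336 h vehicles 829 higher with array weights. The contrast of vehicle and dosed differences called 42, and 14 without the mean-variance trend, 10 without replicates 1 and 2 of R2, and 7 to 25 with 1 vehicle array left out. Signs turned for Alb (-0.0787 with housekeeping centring, -0.00266 as the mean over probe sets), Crp (-0.704, mean over probe sets), Cyp2e1 (-0.0408) and Ddc (-0.0185) with housekeeping centring, Cyp4a1 (-0.26; 0.104 as the mean over probe sets, 0.0398 without replicate 1 of study 4, -0.406 to 0.0398 over the arrays left out), Ttr (0.0734, mean over probe sets) and the GAPDH ratio (0.057 as 3′ over middle). The causes were not tested.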

Other observations

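Of 1105 genes with several tested probe sets, 148 had at least 1 call, and in 9 of these all probe sets were called the same way, in 138 only some were, and in Crp they were called in both directions. Probe sets without a gene symbol were called in 65 of 878 (7.4%), 15 higher and 50 lower in study 4. Of all 6361 probe sets 5.64% were called, 2.63% higher and 3.02% lower.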
